A study of Rattus norvegicus with 24 samples.

Results

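Messenger RNA of 9 genes of the growth hormone and insulin-like growth factor (IGF) axis was followed in the liver of adult female rats that differed in their grandfathers' diet and in their own, chow or a high-fat diet (HFD). The genes were Igf1, Igfals, Igfbp1, Igfbp2, Igfbp3, Ghr, Prlr, Stat5b and Socs2. They were chosen by name, as probe sets (the sets of array probes that report 1 transcript) whose only gene symbol in the platform annotation was a member. Each of the 9 had exactly 1 such probe set among 20917 on the array, and all 9 passed the filter on low values that left 15687 probe sets for testing.

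The animals were Sprague-Dawley females of the F2 generation, with no genetic change or drug named in the labels. The first word of each group name gives the diet of the F0 grandfather and the second the female's own diet. GpatCD-CD (7 females) had a chow-fed grandfather and ate chow, and GpatCD-HF (6) had a chow-fed grandfather and ate the HFD. GpatHF-CD (6) had an HFD-fed grandfather and ate chow, and GpatHF-HF (5) had both exposures. Own feeding lasted 12 weeks, and the HFD supplied 42 or 45% of energy as fat, as the labels give it. All 4 groups shared the strain, the sex and the tissue, and neither exact ages nor the diet of the parents could be read from the labels. The GpatCD groups are called the chow line and the GpatHF groups the HFD line below. No label links a female to her litter or grandfather, so the p-values rest on the spread between these 24 samples. Shared ancestry would make those for grandpaternal diet too small. For own diet the direction depends on how litters were divided between the diets, which the labels do not give.

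Growth hormone from the pituitary binds its receptor on hepatocytes, which activates the kinase JAK2 and the transcription factor STAT5B. STAT5B induces Igf1, whose liver product makes up most circulating IGF-I, together with Igfals, which encodes the acid-labile subunit, and Socs2, which feeds back on the receptor. In blood, most IGF-I travels in a complex of IGF-I, IGFBP-3 and the acid-labile subunit, while IGFBP-1 and IGFBP-2 form smaller complexes and are raised by fasting or low insulin. Liver of adult female rats also carries much prolactin receptor, whose gene is under growth hormone and oestrogen control.

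Promoter sequence was looked up for the 9 genes in RefSeq's GRCr8 tables as the 250 bases before each transcript start, and 8 genes matched, with 9 windows because Prlr has 2. Socs2 had no window there and was not searched. Igfbp1 is shown because its promoter holds the insulin response element through which insulin and FOXO1 act, Igfbp3 because it is the neighbouring gene and the member with the smallest p-values below, and Prlr because its second window held the only STAT motif among the 9 windows searched. Igfbp1 and Igfbp3 lie side by side on chromosome 14, on opposite strands, with 0 listed genes between them. Capitals mark matches to the FOXO core CAAAACA on either strand or to the palindromic STAT motif TTCNNNGAA, and the sequences run 5′ to 3′ on the gene's strand.
Igfbp1 (chr14:86261027-86261276, plus strand): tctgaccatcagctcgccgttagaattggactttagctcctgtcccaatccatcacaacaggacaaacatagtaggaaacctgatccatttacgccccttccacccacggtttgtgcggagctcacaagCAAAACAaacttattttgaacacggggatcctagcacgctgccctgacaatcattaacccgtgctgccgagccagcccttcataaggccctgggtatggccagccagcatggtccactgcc
Igfbp3 (chr14:86277945-86278194, minus strand): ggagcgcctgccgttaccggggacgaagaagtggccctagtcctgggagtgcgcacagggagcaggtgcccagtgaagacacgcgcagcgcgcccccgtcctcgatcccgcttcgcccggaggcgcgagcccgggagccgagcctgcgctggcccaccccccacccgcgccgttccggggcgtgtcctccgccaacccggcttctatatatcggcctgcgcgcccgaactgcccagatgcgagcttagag
Prlr, second window (chr2:60909409-60909658, plus strand): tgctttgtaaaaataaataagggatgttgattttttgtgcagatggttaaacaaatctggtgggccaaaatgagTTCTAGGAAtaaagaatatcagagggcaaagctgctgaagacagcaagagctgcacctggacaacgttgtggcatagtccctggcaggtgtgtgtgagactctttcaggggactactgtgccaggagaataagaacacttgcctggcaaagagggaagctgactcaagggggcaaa

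In Igfbp1 the FOXO core began 121 bases before the start, and the 250 bases were 52.8% G or C, against 71.6% in Igfbp3, where neither motif was found. The FOXO core also stood in the Igf1 window at 67 bases before the start and in the first Prlr window, on the other strand, where it spanned positions -202 to -196. Among 33469 promoter windows of the same length in the table, 5.46% held the FOXO core and 7.67% the STAT motif. The E-box CACGTG was in Igfbp2 alone among the 8 members searched (5.59% of all windows), and the C/EBP motif TTGCGCAA, the cyclic AMP motif TGACGTCA and the palindromic HNF1 motif were in 0 member windows (0.14, 1.59 and 0.00299% of all windows). Such matches describe letters and not binding.

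The array data set the precision of everything that follows. No 2 arrays held identical values, log2 signals of any 2 arrays correlated at 0.974 to 0.993, and the median intensity per array was 97.9 to 127.6. The first principal component, with 19.1% of the variance, tracked array brightness, and on the second, with 13.8%, arrays 21, 22, 24 and 25 stood apart from the other 20, so results were also computed without them. All 9 measured hepatocyte markers had intensities of 2145 or more on every array. The growth protocol names gonadal adipose tissue although every label says liver. Of the adipocyte genes, Adipoq, Lep, Plin1 and Retn were at 36.7 to 82.3, 29.3 to 54.3, 49.15 to 101.48 and 42.53 to 81.01. Cfd was at 83.95 to 159.75, Fabp4 at 22.38 to 137.09, and Slc2a4, which did not pass the filter, at 23.22 to 38.33. Cidec was higher, at 974.55 to 1786.04. Because these are bulk livers, fewer cells of a type and less RNA per cell cannot be told apart.

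No gene of the axis passed the test for either diet on the deposited scale. With the limma fit over all probe sets, 0 of the 9 genes passed an adjusted p of 0.05 for own diet in the chow line, where 0.319% of tested probe sets passed, and 0 of 9 in the HFD line, where 0.752% passed. For grandpaternal diet, 0 of 9 passed on own chow and 0 of 9 on own HFD, and 0% of probe sets passed in either comparison. The comparison of both diets with neither (2.04% of probe sets passing), of own diet alone with grandpaternal diet alone (0.293%), the average over lines for own diet (1.99%), the average for grandpaternal diet (0%) and the interaction (0%) each had 0 members passing. These comparisons share groups with each other. After quantile normalization, which gives all arrays 1 distribution, 1 of 9 (Igfbp3) passed for own diet in the chow line (0.567% of probe sets) and 0 in the HFD line (0.574%). In the other comparisons 0 of 9 passed then, beside 0.00637 and 0% for grandpaternal diet on own chow and own HFD, 2 and 0.414% for both diets against neither and own against grandpaternal diet alone, 2.72 and 0% for the averages of own and grandpaternal diet, and 0% for the interaction. At an unadjusted p under 0.05, 1 of 9 members was counted for own diet in the chow line (8.8% of all probe sets), 1 in the HFD line (15.8%), 1 for grandpaternal diet on own chow (9.15%) and 0 on own HFD (11%). The counts were 1 for both diets against neither (18.2%), 0 for own diet against grandpaternal diet (6.5%), 1 for average own diet (13.3%), 0 for average grandpaternal diet (11%) and 0 for the interaction (9.71%). No member had groups free of overlap in any of the 6 pairwise comparisons as deposited, where 0.338, 3.04, 0.325, 1.18, 1.42 and 0.631% of all probe sets did, in the order own diet in the chow line and the HFD line, grandpaternal diet on chow and on the HFD, both against neither, and own against grandpaternal diet alone.

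The signs of some of these differences depended on the scaling. After quantile normalization 8 of 9 members kept their sign for own diet in the chow line and 5 of 9 in the HFD line, 7 and 6 of 9 for grandpaternal diet on own chow and own HFD, and 8 of 9 for average own diet. All 9 members were lower on the HFD in the HFD line, as were 71.6% of all probe sets, and 4 of the 9 were higher after quantile normalization. The median of the 9 was -0.14 there, against -0.09 over all probe sets, and -0.01 in the chow line, against 0.01. GpatHF-HF had the lowest mean of the 4 groups for Igf1, Igfals, Igfbp1, Ghr and Stat5b, and its mean array median was 7.83 ± 0.08 (SD, n = 5) on the log2 scale, against 7.96 in each other group. Ordered by group mean, no neighbouring groups differed by the test for any member (smallest adjusted p = 0.513).

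**Figure D1:**
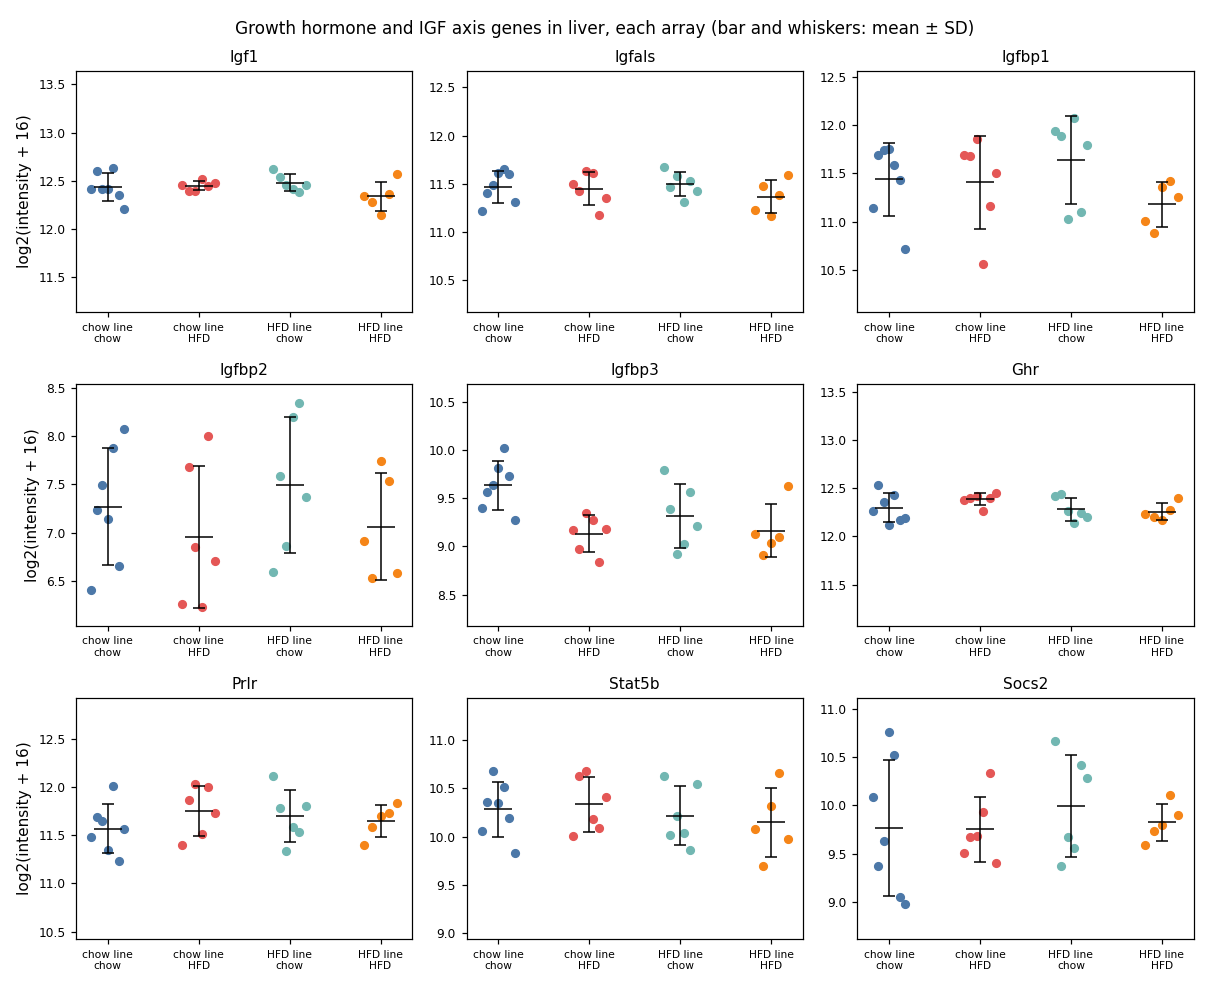
Signal of each of the 9 genes on every array, as log2(intensity + 16), by group; each point is 1 array, the bar is the group mean and the whiskers are ±1 SD (n = 7, 6, 6 and 5), and all panels span the same number of log2 units. Igf1 and Ghr form tight bands in all 4 groups, Igfbp2 and Socs2 scatter widely within groups, and the Igfbp3 points of GpatCD-CD lie higher than most of the others.

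Igf1 encodes the hormone itself, and its signal was nearly level across groups. On the log2(intensity + 16) scale used throughout, the lowest, median and highest arrays were 12.21, 12.42 and 12.63 in GpatCD-CD, 12.39, 12.45 and 12.52 in GpatCD-HF, and 12.38, 12.46 and 12.62 in GpatHF-CD. The 5 arrays of GpatHF-HF were at 12.34, 12.28, 12.15, 12.36 and 12.57. The groups overlapped throughout, and the lowest array was one of GpatHF-HF. The mean difference on the HFD was 0.01 ± 0.07 (SE) in the chow line (95% interval -0.13 to 0.15, adjusted p = 0.983) and -0.14 ± 0.07 in the HFD line (-0.29 to 0.02, adjusted p = 0.362). In linear terms, the intervals of the own-diet and grandpaternal comparisons of Igf1 reached from 0.818-fold to 1.13-fold and no further.

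The Igf1 values were also computed on the other scaling. Over all tested probe sets the median difference in that comparison was -0.09, and after quantile normalization Igf1 was at -0.05 (95% interval -0.15 to 0.05). In the chow line the quantile-normalized value was -0.08 (-0.17 to 0.01), where the sign differed from the deposited scale.

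Igfals encodes the acid-labile subunit, a liver product that holds the large IGF complex in the circulation. Its lowest, median and highest arrays were 11.22, 11.49 and 11.65 in GpatCD-CD, 11.18, 11.46 and 11.63 in GpatCD-HF, and 11.31, 11.498 and 11.67 in GpatHF-CD, and the 5 GpatHF-HF arrays were at 11.23, 11.48, 11.17, 11.38 and 11.59. The groups covered the same range. Own diet gave -0.02 ± 0.09 in the chow line (adjusted p = 0.982) and -0.13 ± 0.10 in the HFD line (adjusted p = 0.515), and the latter was 0.01 after quantile normalization. Over the own-diet and grandpaternal comparisons the 95% intervals of Igfals stayed between 0.795-fold and 1.16-fold.

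Igfbp3, the third part of that complex and a product mainly of the non-parenchymal cells of rat liver, was the member that came nearest to a diet difference. In GpatCD-CD the lowest, median and highest arrays were 9.27, 9.64 and 10.02. In GpatCD-HF they were 8.84, 9.18 and 9.35, and all 6 of these arrays were below the GpatCD-CD mean. In GpatHF-CD the values were 8.92, 9.30 and 9.79, and the 5 GpatHF-HF arrays were at 9.13, 8.91, 9.04, 9.10 and 9.63. GpatCD-CD was the high group, and its lowest array lay below the 2 highest of GpatCD-HF (9.28 and 9.35).

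The Igfbp3 means were 9.63 ± 0.25 (SD, n = 7) in GpatCD-CD and 9.13 ± 0.19 (n = 6) in GpatCD-HF. The difference was -0.50 ± 0.14 (SE), or 1.42-fold lower on the HFD, with a 95% interval of -0.79 to -0.22 and an unadjusted limma p of 0.00134, but it did not pass over all probe sets (adjusted p = 0.169). After quantile normalization the difference was -0.52 ± 0.11 and passed (adjusted p = 0.0164), and the groups no longer overlapped (9.44 to 9.79 against 8.91 to 9.25), as for 0.701% of probe sets. The within-group SD of Igfbp3 was 0.27 as deposited and 0.20 after quantile normalization, which changes the test more than the size of the difference. Centring each array on its median gave -0.48 (adjusted p = 0.0680). The quantile-normalized call held without arrays 21, 22, 24 and 25 (-0.57, adjusted p = 0.0450) and in 23 of 24 fits that each left out 1 array, and it was lost without array 34 (adjusted p = 0.0552). Fits that left out a GpatHF-CD or GpatHF-HF array kept the difference at -0.52, as these groups are not compared here, and changed mainly the estimate of spread. Quantile normalization as an alternative was planned, while its combination with left-out arrays was added after the data were seen.

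In the other comparisons Igfbp3 gave smaller differences. Own diet in the HFD line was at -0.15 ± 0.15 (adjusted p = 0.628), and -0.01 after quantile normalization. Grandpaternal diet gave -0.32 ± 0.14 on own chow (unadjusted p = 0.0318, adjusted p = 0.515), with 5 of 6 GpatHF-CD arrays below the GpatCD-CD mean, and 0.03 ± 0.15 on own HFD (adjusted p = 0.937). After quantile normalization these were -0.34 (unadjusted p = 0.00435, adjusted p = 0.271, 6 of 6 arrays below) and 0.18 (adjusted p = 0.917). Both diets against neither gave -0.47 (adjusted p = 0.0859), with 5 of 5 arrays below the GpatCD-CD mean, and -0.35 after quantile normalization (adjusted p = 0.111). Averaged over the lines, own diet gave -0.33 ± 0.10 (adjusted p = 0.108), or -0.27 after quantile normalization (adjusted p = 0.0740). The own-diet differences of the lines were compared by the interaction, at 0.35 ± 0.21 as deposited (adjusted p = 0.583) and 0.51 after quantile normalization (unadjusted p = 0.00341, adjusted p = 0.510), so a difference between the lines was not shown. From high to low the means ran GpatCD-CD, GpatHF-CD, GpatHF-HF and GpatCD-HF, and no neighbouring pair in this order differed by the test.

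**Figure D2:**
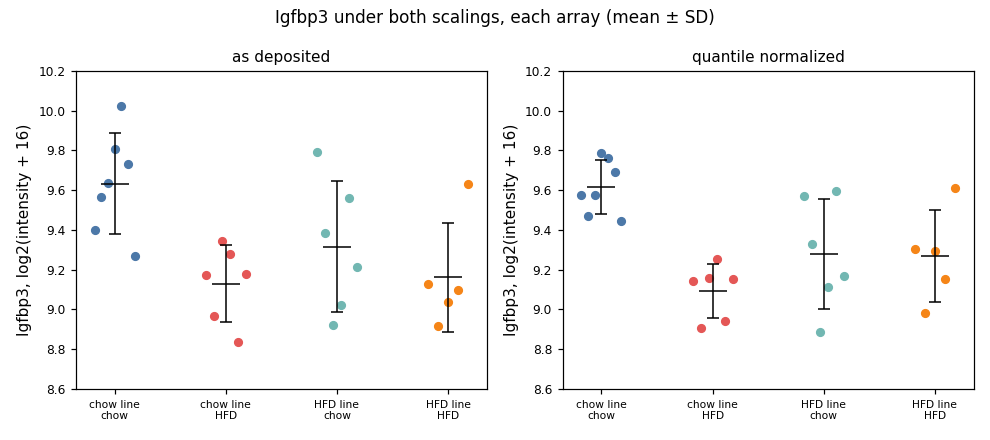
Igfbp3 signal on each array, as deposited (left) and after quantile normalization (right), in log2(intensity + 16); points are arrays, bars are group means and whiskers ±1 SD. The GpatCD-HF points reach 9.35 on the left, where the lowest GpatCD-CD point is 9.27, and on the right they end at 9.25 below a lowest GpatCD-CD point of 9.44.

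Markers of immune cells moved in the same direction as Igfbp3 in the chow line. On the HFD there, each of the 11 measured markers of Kupffer cells and other macrophages had a lower mean, as did 45.6% of all probe sets. Their median difference was -0.48, against 0.01 over all tested probe sets. Of the 11, 1 fell (0.319% of probe sets passed), the scavenger receptor gene Marco (-1.299 ± 0.22, adjusted p = 0.00280). After quantile normalization 3 of the 11 passed (0.567% of probe sets), Marco, Cd5l (-0.81, adjusted p = 0.0242) and Vsig4 (-0.72, adjusted p = 0.0436). In the HFD line all 11 were lower on the HFD as well, as were 71.6% of all probe sets, with medians of -0.32 and -0.09. After quantile normalization 9 of the 11 were lower there (median -0.19, against -0.003 over all probe sets). As deposited, 1 of the 11 passed in that line, where 0.752% of probe sets did. Marco fell there (-1.03 ± 0.24, adjusted p = 0.0361, lost without any 1 of arrays 24, 38, 41, 42, 45 and 46, and at 0.0762 without arrays 21, 22, 24 and 25), while Igfbp3 was at -0.15, or -0.01 after quantile normalization, without passing. The summed intensity of the 11 macrophage markers was 6258 to 10348 in GpatCD-CD, 3705 to 6621 in GpatCD-HF, 5093 to 9062 in GpatHF-CD and 4593 to 7547 in GpatHF-HF. Among 7 lymphocyte markers, own HFD in the chow line went with lower means for 6 (median -0.21), 0 passed (2 had an unadjusted p under 0.05, beside 8.8% of all probe sets), and 3 were lower in the HFD line (median 0.01). Their summed intensity was 482 to 748, 392 to 523, 418 to 618 and 452 to 670 in the same order. No marker of either list was at 0 on any array, which does not show detection. The lowest intensity was 22.4 in the macrophage list (Marco) and 27.2 in the lymphocyte list (Cd8a), against array medians of 97.9 to 127.6. Over the 24 arrays, quantile-normalized Igfbp3 correlated with the mean of the macrophage markers at Pearson r = 0.725 (Spearman rho = 0.744) and of the lymphocyte markers at r = 0.809 (rho = 0.855). After subtracting group means r was 0.502 and 0.762, and without arrays 21, 22, 24 and 25 it was 0.730 and 0.802. These are descriptions over arrays that share diets and brightness. Over all 24 quantile-normalized arrays, r was 0.223 for 8 endothelial markers, 0.313 for 9 stellate cell markers and -0.224 for 9 hepatocyte markers. As deposited, r was 0.793 for the macrophage and 0.812 for the lymphocyte markers. It was 0.488 for the endothelial, 0.539 for the stellate cell and 0.032 for the hepatocyte markers on that scale. What part these cells had in the Igfbp3 values was not tested.

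**Figure D3:**
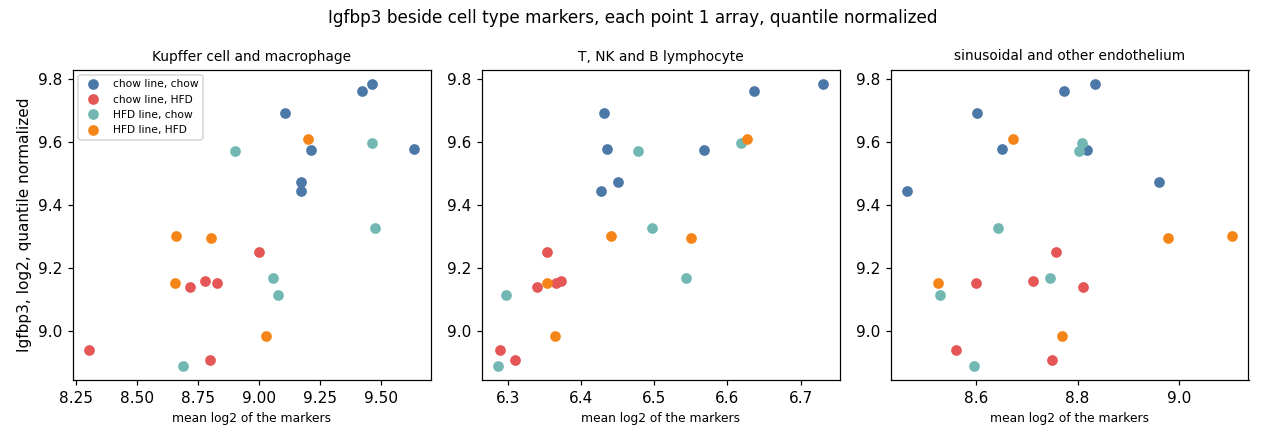
Igfbp3 (vertical axis, quantile-normalized log2) against the mean log2 signal of 11 macrophage, 7 lymphocyte and 8 endothelial markers on the same array; each point is 1 of 24 arrays, coloured by group. Points rise together in the first and second panels (r = 0.725 and 0.809) and scatter in the third (r = 0.223).

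Igfbp1, the insulin-suppressed binding protein, was the 1 member other than Igfbp3 with an unadjusted p under 0.05 in any comparison. Its lowest, median and highest arrays were 10.72, 11.59 and 11.75 in GpatCD-CD, 10.56, 11.59 and 11.85 in GpatCD-HF, and 11.03, 11.84 and 12.07 in GpatHF-CD, while the 5 GpatHF-HF arrays lay at 11.003, 10.88, 11.36, 11.42 and 11.25. All 5 lay below the GpatHF-CD mean of 11.64, and 2 of them, at 11.003 and 10.88, lay below the lowest GpatHF-CD array. Own HFD in the HFD line gave -0.46 ± 0.22 (1.37-fold lower, 95% interval -0.91 to -0.01, unadjusted p = 0.0464), which did not pass (adjusted p = 0.310) and was -0.31 after quantile normalization (-0.74 to 0.11). In the chow line the value was -0.03 ± 0.20 (adjusted p = 0.988), and the interaction was -0.43 ± 0.30 (adjusted p = 0.642). Grandpaternal diet gave 0.20 ± 0.20 on chow (adjusted p = 0.789) and -0.23 ± 0.22 on the HFD (adjusted p = 0.657).

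Igfbp2, a binding protein that leptin and fasting are known to regulate in liver, was the dimmest member, with intensities of 59.1 to 309.4. Its lowest, median and highest arrays were 6.40, 7.24 and 8.08 in GpatCD-CD, 6.23, 6.78 and 7.998 in GpatCD-HF, and 6.59, 7.48 and 8.35 in GpatHF-CD, and the GpatHF-HF arrays were at 6.91, 6.53, 7.75, 7.54 and 6.58. Every group spread over more than 1 log2 unit, which exceeded any difference between groups. Own diet gave -0.31 ± 0.32 in the chow line (adjusted p = 0.868) and -0.43 ± 0.35 in the HFD line (adjusted p = 0.551). The 95% intervals of the own-diet and grandpaternal comparisons reached from 0.448-fold to 1.85-fold, the widest of the 9 genes. The fold changes of so dim a gene are also understated by the added 16.

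Ghr, the growth hormone receptor, was as steady as Igf1. Its lowest, median and highest arrays were 12.12, 12.27 and 12.53 in GpatCD-CD, 12.27, 12.40 and 12.45 in GpatCD-HF, and 12.14, 12.25 and 12.44 in GpatHF-CD, and the GpatHF-HF arrays were at 12.23, 12.20, 12.17, 12.28 and 12.40. The narrow GpatCD-HF band lay inside the range of GpatCD-CD. Own diet gave 0.09 ± 0.07 in the chow line (adjusted p = 0.794) and -0.03 ± 0.07 in the HFD line (adjusted p = 0.869), and grandpaternal diet gave -0.01 ± 0.07 on chow and -0.13 ± 0.07 on the HFD (adjusted p = 0.969 and 0.484). The last value was -0.0038 after quantile normalization. All of these intervals lay between 0.823-fold and 1.17-fold.

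Prlr, the prolactin receptor, had its lowest, median and highest arrays at 11.23, 11.57 and 12.01 in GpatCD-CD, 11.39, 11.80 and 12.03 in GpatCD-HF, and 11.34, 11.68 and 12.11 in GpatHF-CD. The GpatHF-HF arrays were at 11.40, 11.58, 11.70, 11.73 and 11.83. All 4 groups covered a similar range, and GpatHF-HF was the narrowest. Own diet gave 0.19 ± 0.13 in the chow line (95% interval -0.07 to 0.45, adjusted p = 0.744) and -0.05 ± 0.14 in the HFD line (adjusted p = 0.890). A single probe set cannot tell the long and short receptor forms apart here.

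Stat5b, the transcription factor downstream of the receptor, had its lowest, median and highest arrays at 9.83, 10.34 and 10.67 in GpatCD-CD, 10.01, 10.30 and 10.68 in GpatCD-HF, and 9.86, 10.12 and 10.63 in GpatHF-CD. The GpatHF-HF arrays were at 10.08, 9.70, 10.31, 10.66 and 9.98. The groups overlapped throughout. Own diet gave 0.05 ± 0.16 in the chow line and -0.07 ± 0.17 in the HFD line (adjusted p = 0.974 and 0.857). Stat5b has a near-identical neighbour, Stat5a, and whether the probe sets tell them apart was not tested.

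Socs2, the STAT5-induced feedback inhibitor, varied most among the signalling genes. Its lowest, median and highest arrays were 8.97, 9.63 and 10.76 in GpatCD-CD, 9.40, 9.67 and 10.33 in GpatCD-HF, and 9.37, 9.98 and 10.66 in GpatHF-CD, and the GpatHF-HF arrays were at 9.59, 9.73, 9.79, 10.11 and 9.90. The chow-fed groups were wider than their HFD-fed counterparts, with SDs of 0.70 and 0.53 against 0.34 and 0.19 (n = 7, 6, 6 and 5), a description with no test. The means differed little. Own diet gave -0.01 ± 0.25 in the chow line and -0.17 ± 0.27 in the HFD line (adjusted p = 0.994 and 0.780), and grandpaternal diet gave 0.23 ± 0.25 on chow (95% interval -0.29 to 0.74, adjusted p = 0.812). Intervals of the own-diet and grandpaternal comparisons ran from 0.602-fold to 1.67-fold.

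**Figure D4:**
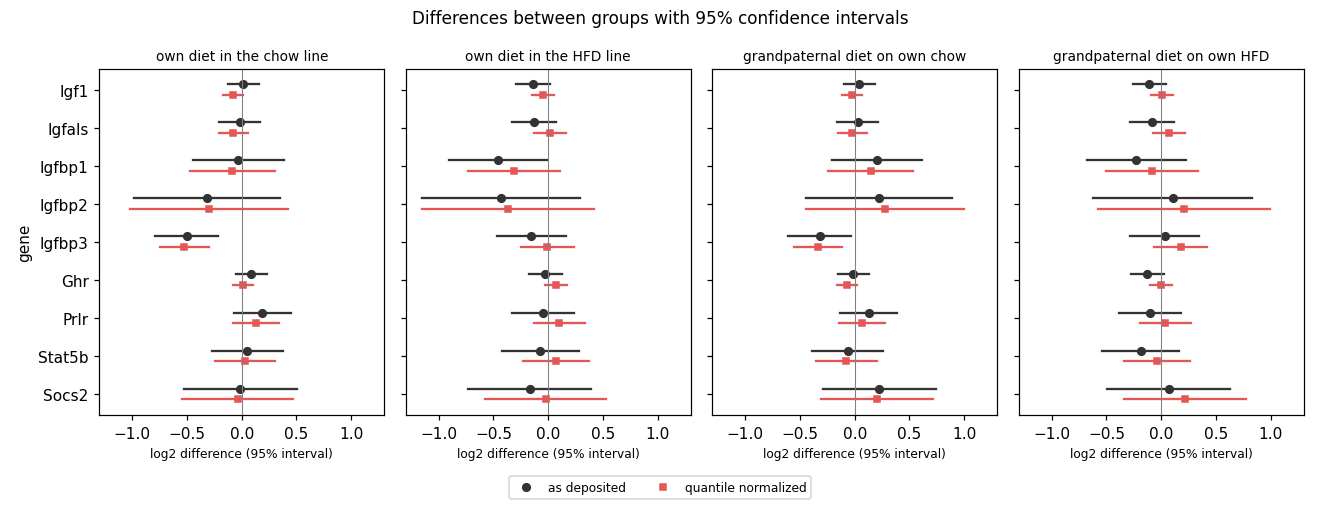
Log2 differences of the 9 genes with 95% confidence intervals for own diet in each line and grandpaternal diet on each own diet, from arrays as deposited (dark) and quantile-normalized (red). Igfbp3 in the first panel, at -0.50 and -0.52, and in the third, at -0.32 and -0.34, is the 1 gene whose intervals exclude 0 under both scalings. Intervals are narrow for Igf1 and Ghr and wide for Igfbp2 and Socs2.

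The members differed widely in their spread between arrays of 1 group. With 1 array per sample, differences between animals and measurement noise cannot be told apart. The SD within groups was 0.11 for Ghr and 0.12 for Igf1, smaller than in all but 3.17 and 3.68% of the 15687 tested probe sets. It was 0.16 for Igfals (25.9% of probe sets had a smaller SD), 0.24 for Prlr (76.9%), 0.27 for Igfbp3 (82.6%) and 0.31 for Stat5b (89.7%). Igfbp1 (0.40, 95.7%), Socs2 (0.50, 97.8%) and Igfbp2 (0.66, 99.0%) were among the most variable. From the lowest to the highest of 24 arrays, Igf1 spanned 1.40-fold and Ghr 1.33-fold, while Igfbp1 spanned 2.85-fold, Socs2 3.44-fold and Igfbp2 4.33-fold. After quantile normalization these 3 stood at 94.96, 97.7 and 99.2%. The percentages compare probe sets of any brightness. Mean log2 signal was 12.43 for Igf1 and 12.31 for Ghr, against 11.43 for Igfbp1, 9.83 for Socs2 and 7.20 for Igfbp2.

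**Figure D5:**
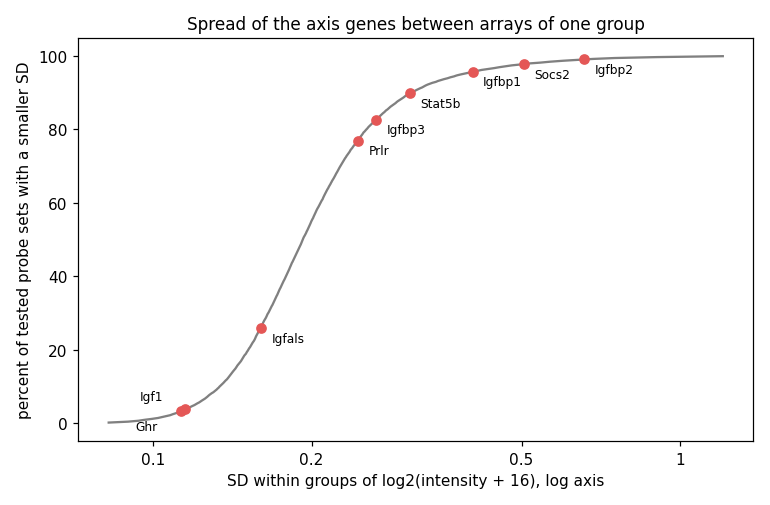
Within-group SD of log2(intensity + 16) (horizontal, log axis) against the percentage of the 15687 tested probe sets with a smaller SD (vertical); the grey line is the distribution over tested probe sets and the red points are the 9 genes. Ghr and Igf1 sit near the bottom at 3.17 and 3.68%, and Igfbp1, Socs2 and Igfbp2 above 95%.

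Members did not vary as 1 block from array to array. Of the 36 pairs, 0 had a Pearson r above 0.5 over the 24 quantile-normalized arrays, against 5 as deposited. The highest were Igf1 with Igfbp3 (r = 0.423) and Igfbp1 with Stat5b (0.401). Igf1 and Igfals, both STAT5B targets, were at 0.315, and the neighbours Igfbp1 and Igfbp3 at 0.103. The lowest was Igfals with Prlr (-0.584, and 0.066 as deposited).

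The genes most like each member in quantile-normalized signal over the 24 arrays were found by Pearson r, as a description. For Stat5b these were its neighbour Stat5a (r = 0.890), Chka (0.865) and Tubb2a (0.851), and for Prlr they were Slc7a7 (0.864), Hdhd3 (0.805) and Gpr158 (0.775). For Igf1 they were Rai14 (0.841), Maob (0.819) and St6gal1 (0.806), and for Igfbp3 Actn1 (0.811), Fam78a (0.798) and the chemokine gene Ccl6 (0.775). For Ghr they were Thoc2 (0.789), Orc4 (0.776) and Npc1 (0.770), and for Igfals Hhipl1 (0.776), Smyd2 (0.723) and Rara (0.708). For Igfbp2 they were Hoga1 (0.734), Cd300a (0.732) and Plxna3 (0.711), for Socs2 Dcaf5 (0.730), Ajuba (0.717) and Ski (0.715), and for Igfbp1 Pnrc1 (0.672), Nobox (0.671) and Etv6 (0.658). The arrays share diets and brightness, and these genes were picked for the highest r among the tested probe sets. How high such picked values run without any link between genes was not tested.

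The other genes of the pathway were read from lists chosen by role. Among 13 measured genes of receptor signalling, 0 passed for own diet in the chow line and 0 in the HFD line. Of all probe sets, 0.319 and 0.752% passed there. At an unadjusted p under 0.05, 1 and 4 of the 13 were counted, beside 8.8 and 15.8% of all probe sets. The medians were -0.12 and -0.14 against 0.01 and -0.09 over all tested probe sets. Averaged over the lines, where 1.99% of probe sets passed, 1 of the 13 fell, Socs3, a feedback inhibitor of cytokine signalling. Its means were 7.73 ± 0.18 (SD, n = 7) in GpatCD-CD, 7.38 ± 0.14 (n = 6) in GpatCD-HF, 7.66 ± 0.37 (n = 6) in GpatHF-CD and 7.27 ± 0.20 (n = 5) in GpatHF-HF. The average own-diet difference of Socs3 was -0.37 ± 0.09 (adjusted p = 0.0361), and the call was lost after quantile normalization (adjusted p = 0.0730), without arrays 21, 22, 24 and 25 (0.0996), and in 14 of 24 fits without a single array, namely 22, 24, 27, 28, 29, 31, 33, 35, 37, 38, 41, 42, 45 and 46. The insulin receptor substrates Irs1 (-0.45 ± 0.14, adjusted p = 0.124) and Irs2 (-0.48 ± 0.19, adjusted p = 0.221) had small unadjusted p-values in the HFD line without passing.

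A further list of 13 measured IGF-related genes held the ligand Igf2, the receptor genes Igf1r, Igf2r and Insr, the binding protein genes Igfbp4 to Igfbp7, the protease Htra1, the protease inhibitor Stc2 and the mRNA-binding protein genes Igf2bp1, Igf2bp2 and Igf2bp3. Of these 13, 0 passed in any of the own-diet and grandpaternal comparisons. Of all probe sets, 0.319 and 0.752% passed for own diet in the chow line and the HFD line, and 0% for grandpaternal diet. For own diet 0 and 3 of the 13 had an unadjusted p under 0.05 in the chow line and the HFD line, and for grandpaternal diet 0 and 1 on chow and on the HFD. Of all probe sets 8.8, 15.8, 9.15 and 11% did, in that order. The medians of the 13 genes for own diet were 0.03 in the chow line and -0.04 in the HFD line. The smallest p was that of Htra1, a protease that cleaves IGF binding proteins, in the HFD line (-0.53 ± 0.16, adjusted p = 0.119). Averaged over own diets, all 13 were lower in the HFD line than in the chow line (median -0.09, against -0.05 over all probe sets, of which 74.2% were lower), 11 of 13 after quantile normalization. For this average 0 passed, as did 0% of probe sets. An unadjusted p under 0.05 (11% of all probe sets) was found for 2, Igfbp5 (-0.42 ± 0.18, adjusted p = 0.407) and Igfbp6 (-0.27 ± 0.13, adjusted p = 0.440).

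Sex-biased liver genes are a readout of the growth hormone secretion pattern, which is pulsatile in male rats and more continuous in females. Of 9 measured female-biased genes, 0 passed for own diet in either line (0.319 and 0.752% of probe sets passed). In the chow line and the HFD line 4 and 0 had an unadjusted p under 0.05 (8.8 and 15.8% of all probe sets). The medians were 0.20 in the chow line and -0.08 in the HFD line. Cyp2a1 had the smallest p in the chow line (0.24 ± 0.07, adjusted p = 0.167). Of 7 measured male-biased genes, 0 passed for own diet in either line (3 and 1 at an unadjusted p under 0.05, beside 8.8 and 15.8% of all probe sets). Averaged over the lines, where 1.99% of probe sets passed, 1 rose, Cyp2c22, a cytochrome P450. After quantile normalization Cyp2c22 also passed for own diet in the HFD line (0.57, adjusted p = 0.0470, against 0.45 ± 0.14 and 0.123 as deposited). Its means were 11.74 ± 0.24 (SD, n = 7), 12.05 ± 0.27 (n = 6), 11.54 ± 0.32 (n = 6) and 11.99 ± 0.09 (n = 5) in GpatCD-CD, GpatCD-HF, GpatHF-CD and GpatHF-HF. The average own-diet difference of Cyp2c22 was 0.38 ± 0.10 (adjusted p = 0.0352, and 0.0142 after quantile normalization). It was lost in 12 of 24 fits without a single array, namely 24, 31, 32, 33, 35, 37, 38, 40, 41, 42, 44 and 46, with adjusted p up to 0.0636. The male-biased Cyp3a18 was at 1.01 ± 0.31 in the chow line (adjusted p = 0.255). In the chow line all 9 female-biased and all 7 male-biased genes were higher on the HFD (45.6% of all probe sets were lower), with medians of 0.20 and 0.30, and 9 and 6 of them were higher after quantile normalization (medians 0.15 and 0.23). All 9 hepatocyte markers were also higher there as deposited (median 0.17, 0 passing, 7 at an unadjusted p under 0.05, beside 8.8% of all probe sets). After quantile normalization 3 of the 9 were lower and their median was 0.01. The hepatocyte markers are not a separate set, as Cyp2c7 is also among the female-biased genes. Between lines on own HFD, all 9 female-biased and all 7 male-biased genes were lower in the HFD line, with medians of -0.19 and -0.27 (81% of all probe sets were lower, median -0.10), 7 and 5 of them after quantile normalization. Of these genes 0 passed there (0% of probe sets), and 3 and 4 had an unadjusted p under 0.05 (11% of all probe sets). As deposited all 9 hepatocyte markers were lower there (median -0.12), and after quantile normalization 5 of 9 were. What part brightness and hepatocyte RNA had in these values was not tested. Of 13 growth hormone-regulated transcription factors and secreted proteins, 0 passed for own diet in either line (3 and 2 at an unadjusted p under 0.05, beside 8.8 and 15.8% of all probe sets). Hnf4a and Serpina1 among them are also hepatocyte markers.

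Among 18 genes regulated by insulin, fasting or amino acids, as Igfbp1 is, 1 fell for own diet in the chow line and 2 averaged over the lines. Of all probe sets 0.319 and 1.99% passed in these comparisons. Sesn1, a stress-induced brake on TORC1 and a FOXO target, was 9.59 ± 0.10 (SD, n = 7) in GpatCD-CD, 9.10 ± 0.18 (n = 6) in GpatCD-HF, 9.49 ± 0.14 (n = 6) in GpatHF-CD and 9.12 ± 0.16 (n = 5) in GpatHF-HF. Both HFD-fed groups were low, and GpatCD-HF lay wholly below GpatCD-CD, a comparison in which 0.338% of all probe sets had no overlap. It fell by 0.49 in the chow line (SE 0.09, adjusted p = 0.00628) and by 0.43 averaged over the lines (SE 0.07, adjusted p = 0.000312). In the HFD line alone Sesn1 was at -0.37 ± 0.10 (adjusted p = 0.0692). Its calls held in all 24 fits without a single array and after quantile normalization.

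Pck1, the gluconeogenic enzyme gene that insulin represses, fell by 0.49 averaged over the lines (SE 0.13, adjusted p = 0.0393, and 0.0313 after quantile normalization). That call was lost in 16 of 24 fits without a single array, namely 25, 26, 27, 28, 29, 31, 34, 35, 37, 38, 40, 41, 42, 45, 46 and 47, with adjusted p up to 0.0916. For both diets against neither, where 2.04% of probe sets passed, Sesn1 fell (-0.47 ± 0.09, adjusted p = 0.00909), and Txnip, a glucose-induced gene, fell as well (-0.68 ± 0.16, adjusted p = 0.0233), a call lost after quantile normalization (adjusted p = 0.0522), without arrays 21, 22, 24 and 25 (0.0849) and without any 1 of arrays 25, 27, 28 and 46. The list medians were 0.02 in the chow line and -0.03 averaged over the lines, against 0.01 and -0.03 over all probe sets.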

How the data were processed

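Liver RNA of 24 rats was measured on an Affymetrix whole-transcript array from 200 ng of total RNA, 1 array per sample, per the labels' protocols. For each probe set the authors deposited a linear intensity; the submitters' processing notes name the Expression Console software and the PLIER algorithm, without versions or options. From it log2(value + 16) was computed without further normalization, and the dimmest 25% of probe sets by mean were dropped. The rest were fitted in limma 3.58.1 (R 4.3.3) with 4 group means over all 24 arrays and an intensity trend. P-values are two-sided, with Benjamini-Hochberg adjustment over 15687 probe sets and a threshold of 0.05; ± after a difference is its SE. Symbols were those of the platform annotation after an update by Entrez identifier (18197 probe sets had 1 symbol, 960 several, 1760 none); a list gene is its brightest probe set, and list genes without a single-gene probe set past the filter are not analysed here. All 9 members were named; list genes named were those passing plus up to 3 with the smallest p, of which some are given, and the 3 most alike genes per member, leaving out LOC and RGD symbols. Members, lists and alternatives were chosen with earlier results of these data known. The fit was tested on simulated data. Alternatives covered scaling, filter, offset, variance model, array weights, probe set choice, samples fitted and left-out arrays.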

Additional observations from a re-analysis of the deposited data

How the results depend on the processing

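The 81 differences (9 genes, 9 comparisons) were recomputed under 63 alternatives, of which 26 combined quantile normalization with left-out or blocked arrays and were added after the data were seen. The other 37 were planned, with earlier results of these data known. Of 5076 recomputed values, 5043 kept their side of the threshold, that of not passing, and 33 passed where the deposited scale did not. Of the values that passed, 0 had the opposite sign. No call could be lost, because no member had passed on the deposited scale. All 33 were Igfbp3. Below the threshold, 652 small values changed sign. The number of members passing for own diet in the chow line was 0 as deposited and 1 (Igfbp3) after quantile normalization, alone, without arrays 21, 22, 24 and 25, or with them as a block (adjusted p = 0.0164, 0.0450 and 0.0143). With 1 array left out it was 0 in all 24 fits as deposited (adjusted p of Igfbp3 0.0928 to 0.370), and 0 to 1 after quantile normalization. For both diets against neither it was 1 with array weights (adjusted p = 0.0218) and 0 to 1 with 1 array left out, being 1 without array 30 (0.0379) or 47 (0.0316). For average own diet it was 1 with array weights (0.0316) and 0 to 1 with 1 array left out, being 1 without array 47 (0.0397) as deposited and without array 39 (0.0259) or 47 (0.0289) after quantile normalization. The cause was not tested. No paired analysis was possible because no replicate number occurs in more than 1 group. The number of arrays limits the precision, most for Igfbp2 and Socs2.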
